A study of Mus musculus with 12 samples.

Results

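Macrophages taken from mice on a high-fat diet were given red blood cells (RBC) and set against the same kind of macrophage left without them. The comparison takes 6 of the 12 arrays of the study, 4 of exposed cultures (2 with RBC of chow-fed donors and 2 with RBC of high-fat-fed donors) minus 2 of cultures without RBC, over 19938 genes that have a probe set with a single symbol. The cells were peritoneal macrophages drawn out by a thioglycollate injection from C57BL/6 mice that had been on the high-fat diet for 12 weeks, starting at 6 weeks of age, and the 6 arrays that complete the study hold macrophages of chow-fed C57BL/6 mice treated in the same 3 ways. All groups share the strain and the thioglycollate injection, the 2 replicates of each group are numbered as animals, and whether a given animal supplied macrophages to several cultures is not stated. If the numbers do not mark separate animals, p-values measure only the spread between these samples. Values are log2 signals per array, and differences are on the same log2 scale, each ± its SE from limma fitted to all 12 arrays together. A gene is called where its p, adjusted over all genes by Benjamini-Hochberg, is below 0.05.

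Macrophages remove aged and damaged red cells by engulfing them whole, a process called erythrophagocytosis. The engulfed cell is broken down in the phagolysosome, heme is opened by heme oxygenase, and the freed iron is stored in ferritin or exported through ferroportin, while membrane cholesterol is passed on by sterol transporters. The same cells answer signals from Toll-like and interferon receptors with cytokines, chemokines and antiviral proteins, and a high-fat diet is known to alter this answer.

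The unexposed arrays were less alike than the exposed ones, and much rests on them. Over all genes the correlation was 0.9942 between both unexposed arrays and 0.9960 to 0.9967 among the 4 exposed arrays. Unexposed replicate 2 correlated at 0.9944 to 0.9951 with the exposed arrays, and unexposed replicate 1 at 0.9918 to 0.9939. The cells carried macrophage transcripts throughout: the mean signal over 19 macrophage identity genes lay between 8.15 and 8.18 on the unexposed and between 8.38 and 8.40 on the exposed arrays. Cd14, Fcgr1 and Csf3r of this list were called higher, as given below, and Csf3r is also in the neutrophil list. How much of the gap rests on them was not tested. No detection calls were analysed here, so whether a low signal stands above background is unknown, and in a bulk culture a lower share of a cell type and less RNA per cell cannot be told apart.

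Red cell exposure raised 175 genes and lowered 40, which is 1.08% of all genes tested (0.878% higher and 0.201% lower). The rises ran from 0.38 to 6.28 with a median of 0.67, and 34 of them were above 1 on the log2 scale. The falls were smaller, from -1.19 to -0.36 with a median of -0.51. For each of the 215 called genes all 4 exposed arrays lay on the same side of both unexposed arrays. That order alone was common, since it held upward for 8.87% and downward for 8% of all genes. The median difference over all genes was -0.0029. The count depended on which unexposed array was kept, being 120 without replicate 1 (99 of them among the 215) and 652 without replicate 2 (171 of them among the 215), and it was 141 without replicate 1 of the chow RBC arrays. Whichever of the 12 arrays was left out, 75 of the 175 rises and 7 of the 40 falls stayed called. No called gene could change sign in this way, because its exposed arrays all lay on the same side of both unexposed ones.

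The largest differences were in transcripts of blood cells. Adult globins are read by 4 probe sets that match several gene copies and were therefore tested apart from the single genes. The alpha globin probe sets were higher by 6.15 ± 0.19 and 6.17 ± 0.16, and the beta globin ones by 7.38 ± 0.15 and 7.44 ± 0.16 (adjusted p at most 7.58e-09). S100a9, a calcium-binding protein of neutrophils, had log2 signals of 3.72 and 3.86 without RBC, 9.70 and 9.57 with chow RBC and 10.46 and 10.56 with high-fat RBC, a difference of 6.28 ± 0.12 (adjusted p = 8.45e-13). Ppbp, a chemokine stored in platelet granules, had 4.46 and 4.10 without RBC, 9.82 and 9.69 with chow RBC and 8.54 and 9.33 with high-fat RBC, a difference of 5.06 ± 0.26 (adjusted p = 2.1e-07). In both genes every exposed array stood far above every unexposed array, and S100a9 was highest with high-fat RBC while Ppbp was highest with chow RBC. Retnlg, a resistin-like protein of neutrophils, was higher by 2.17 ± 0.13, and Alas2, which starts heme synthesis in red cell precursors, by 1.31 ± 0.21 (adjusted p = 0.0053, and 0.077 without unexposed replicate 1). Alas2 signals of the exposed arrays were uneven, at 7.35 and 6.32 with chow RBC against 5.68 and 5.36 with high-fat RBC.

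Over the whole lists of blood cell markers, 7 of 17 neutrophil genes, 6 of 11 platelet genes and 1 of 16 erythroid genes (globins not among them) were called higher and none lower. The mean signal of the neutrophil list lay between 5.06 and 5.16 without RBC, between 5.86 and 5.90 with chow RBC and between 6.18 and 6.19 with high-fat RBC. That of the platelet list lay between 5.95 and 6.05 without RBC, between 7.02 and 7.06 with chow RBC and between 6.70 and 6.87 with high-fat RBC. S100a9, with a rise of 6.28, is in the neutrophil list and Ppbp, with a rise of 5.06, in the platelet list. How much of the gaps in these means rests on single members was not tested. The erythroid list overlapped between the groups, at 4.27 to 4.35 without RBC and 4.24 to 4.49 with RBC. Among neutrophil genes that were also called, S100a8, the partner of S100a9, was higher by 0.71 ± 0.11, the chemokine receptor Cxcr2 by 0.88 ± 0.11 and the G-CSF receptor Csf3r by 0.87 ± 0.10. Ly6g, Ngp, Camp, Ltf, Elane, Mpo, Mmp8, Mmp9, Cebpe and Padi4 of the same list were not called. Of the platelet genes, the lipoxygenase Alox12 was higher by 1.31 ± 0.16, the podoplanin receptor Clec1b by 0.80 ± 0.11 and the platelet tubulin Tubb1 by 0.55 ± 0.09. No member of the eosinophil (8 genes), B cell (14), T and NK cell (17), dendritic cell (10) or adipocyte (7) lists was called, and 1 of 10 mast cell and basophil genes was, the histamine-forming enzyme Hdc, at 0.68 ± 0.09. Single arrays left out gave 1 dendritic cell gene called higher (high-fat RBC replicate 2) and 1 adipocyte and 1 mast cell gene called lower (unexposed replicate 2). Of 15 mesothelial and fibroblast genes the receptor Pdgfra fell by 0.42 on the log2 scale (SE 0.09), a call lost without any of the 6 high-fat arrays or either array of chow macrophages given high-fat RBC (highest adjusted p 0.18). Several neutrophil markers (Il1f9, Lcn2, Csf3r) are also made by activated macrophages and stand in other lists below. The part of these blood cell transcripts in the results that follow was not tested.

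Among interferon-stimulated genes many rose. Of 31 antiviral genes of this kind, 15 were called higher and none lower, all 31 had differences above 0, and the median was 0.48. In 71% of them all 4 exposed arrays lay above both unexposed arrays. The mean signal over the list was 5.84 and 6.02 without RBC, 6.64 and 6.67 with chow RBC and 6.43 and 6.63 with high-fat RBC, so the groups did not overlap. Without unexposed replicate 1 the list had 9 called members in place of 15, as it did without replicate 2 of the high-fat RBC arrays, and without unexposed replicate 2 it had 12.

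Promoter sequences of 3 of these genes are shown because the core letters of the interferon-stimulated response element can be read directly in them. They come from RefSeq (build GRCm38.p6), run 5′ to 3′ on the strand of the gene from 250 bases before to 50 bases after its start, and capitals mark matches to GAAANNGAA on either strand, which run together where they overlap.
Ifit1 promoter, chr19:34640639-34640938, plus strand: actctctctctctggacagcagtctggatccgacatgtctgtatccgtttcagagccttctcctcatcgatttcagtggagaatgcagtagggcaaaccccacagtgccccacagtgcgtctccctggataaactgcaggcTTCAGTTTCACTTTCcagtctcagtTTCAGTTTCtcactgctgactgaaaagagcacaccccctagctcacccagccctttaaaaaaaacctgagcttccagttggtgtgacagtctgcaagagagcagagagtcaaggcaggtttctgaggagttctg
Ifit3 promoter, chr19:34583279-34583578, plus strand: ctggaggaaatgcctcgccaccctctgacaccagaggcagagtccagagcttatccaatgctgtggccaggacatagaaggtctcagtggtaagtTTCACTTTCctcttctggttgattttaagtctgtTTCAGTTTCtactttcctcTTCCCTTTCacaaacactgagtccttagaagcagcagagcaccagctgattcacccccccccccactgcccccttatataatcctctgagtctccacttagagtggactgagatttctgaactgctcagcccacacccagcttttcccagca
Rsad2 promoter, chr12:26456403-26456702, minus strand: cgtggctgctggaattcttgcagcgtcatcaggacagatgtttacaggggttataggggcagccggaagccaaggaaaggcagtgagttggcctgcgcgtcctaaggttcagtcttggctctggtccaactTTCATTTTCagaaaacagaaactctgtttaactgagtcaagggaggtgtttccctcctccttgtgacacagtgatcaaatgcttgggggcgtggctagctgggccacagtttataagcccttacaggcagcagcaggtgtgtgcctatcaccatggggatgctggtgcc
The motif was found in 8.56% of 32851 RefSeq promoters of this length. Counted by gene, it was found in 9.2% of the 15614 tested genes with a promoter entry. Ifit1 and Ifit3 had 3 matches each and Rsad2 had 1. Among called rises it was found in 25 of 133 genes with a promoter entry (18.8%), among called falls in 1 of 31 (3.23%), and among the antiviral genes called higher in 8 of 10, namely Ddx58, Ifi205, Ifih1, Ifit1, Ifit3, Oas3, Rsad2 and Trim30a. Over the whole antiviral list it was found in 15 of 24 (62.5%), called or not. Of the 8 genes, Ddx58, Ifi205, Ifih1, Oas3 and Trim30a lost their call without unexposed replicate 1, and all of these but Oas3 without further arrays (highest adjusted p 0.31). In none of the 5 promoters printed here did matches of this motif overlap those of the metal motif given further on. A match describes letters and not a bound site.

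Rtp4, a chaperone of receptor transport that is strongly induced by interferon, changed most. Its log2 signals were 5.35 and 4.77 without RBC, 7.61 and 7.81 with chow RBC and 7.45 and 8.0 with high-fat RBC, a 6.31-fold rise (2.66 ± 0.17, adjusted p = 6.94e-07). Ifit3, whose product binds viral RNA complexes, had 4.50 and 3.89 without RBC, 6.49 and 6.74 with chow RBC and 6.14 and 6.67 with high-fat RBC, a rise of 2.31 ± 0.19 (adjusted p = 1.58e-05). Ifit1, a sensor of viral RNA caps, had 4.08 and 3.86 without RBC, 6.04 and 6.06 with chow RBC and 5.45 and 6.05 with high-fat RBC, a rise of 1.93 ± 0.17 (adjusted p = 2.93e-05). In all 3 genes the exposed arrays stood clear of the unexposed ones, and the arrays of both RBC diets overlapped. Rsad2, the antiviral enzyme viperin, rose by 1.06 ± 0.15, the apoptosis factor Xaf1 by 0.93 ± 0.13 and the oligoadenylate synthetase-like Oasl2 by 0.83 ± 0.13, which was 0.55 without unexposed replicate 2. Closely related copies, such as Ifit3b beside Ifit3, may share probes.

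Of 17 receptors and signal carriers of the interferon pathway, some of them interferon targets themselves, 4 were called higher and none lower, with a median of 0.18. The count was 2 without either unexposed array or either chow RBC array and 1 without high-fat RBC replicate 2. Irf7, the factor that amplifies interferon production, rose by 0.91 ± 0.17 (adjusted p = 0.019), Irf9 by 0.70 ± 0.12 (adjusted p = 0.01), Stat2 by 0.53 ± 0.10 (adjusted p = 0.017) and Usp18, which shuts the receptor off, by 0.50 ± 0.11 (adjusted p = 0.041). Irf7 lost its call without chow RBC replicate 1, high-fat RBC replicate 2 or unexposed replicate 2 (highest adjusted p 0.099), and Irf9 without unexposed replicate 2 (0.054). Stat2 lost it without chow RBC replicate 2, high-fat RBC replicate 2 or unexposed replicate 1 (highest adjusted p 0.24), and Usp18 without any of 9 arrays, all but high-fat RBC replicate 1 and the chow macrophages given high-fat RBC (highest adjusted p 0.3). Interferon beta itself, Ifnb1, differed by 0.04 ± 0.11 (adjusted p = 0.94). None of 8 interferon-induced GTPases was called, and their median was 0.22. 1 GTPase gene was called higher without high-fat RBC replicate 1 or either array of chow macrophages given high-fat RBC.

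**Figure D1:**
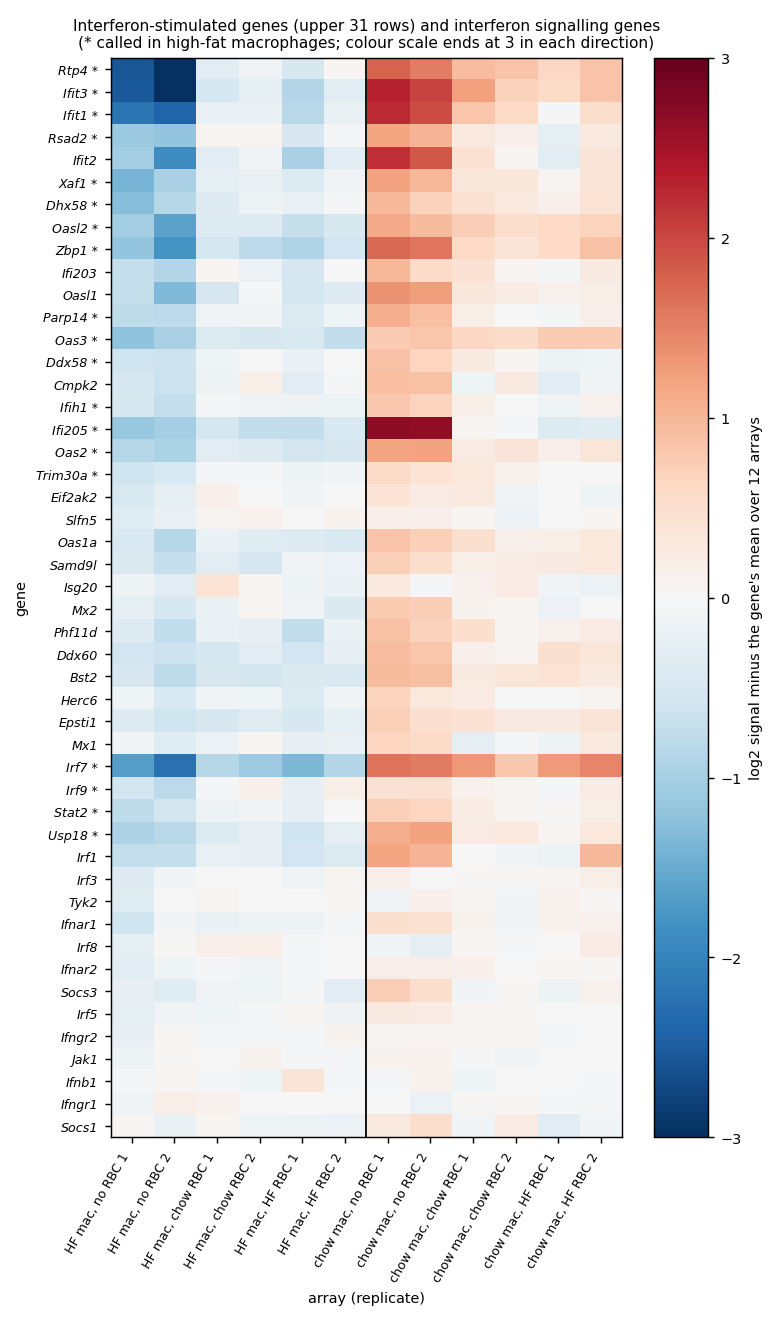
Log2 signal of 31 interferon-stimulated genes and 17 interferon signalling genes (rows, sorted by their difference within each list) on the 12 arrays (columns), minus each gene's mean, with colour from blue (lower) to red (higher) and asterisks at genes called in high-fat macrophages. For most of the interferon-stimulated genes the unexposed high-fat macrophages are bluest and the unexposed chow macrophages reddest, with the exposed arrays between them.

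Cxcl2, Il1b and Il1f9 had the largest rises in the chemokine and cytokine lists. Cxcl2, which draws neutrophils, had log2 signals of 5.04 and 5.65 without RBC, 7.34 and 7.26 with chow RBC and 8.13 and 8.11 with high-fat RBC, a 5.15-fold rise (2.36 ± 0.13, adjusted p = 3.93e-07). Il1b, the precursor of interleukin-1 beta, had 3.82 and 3.80 without RBC, 5.19 and 5.20 with chow RBC and 6.34 and 6.16 with high-fat RBC, a rise of 1.91 ± 0.13 (adjusted p = 1.42e-06). Il1f9, interleukin-36 gamma, had 5.52 and 5.49 without RBC, 6.88 and 6.67 with chow RBC and 7.88 and 7.94 with high-fat RBC, a rise of 1.84 ± 0.10 (adjusted p = 4.19e-07). In these 3 genes the arrays fell into an ordered series without overlap, lowest without RBC, higher with chow RBC and highest with high-fat RBC. Inhba, the activin subunit, rose by 1.14 ± 0.12, and Osm, oncostatin M, by 0.59 ± 0.12, a call lost without either chow RBC array, high-fat RBC replicate 2 or unexposed replicate 1 (highest adjusted p 0.31).

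Of 22 cytokine genes 4 were called higher and none lower (median 0.13), and of 20 CXC and CC chemokines 7 were higher and none lower (median 0.14). The T cell and monocyte attractant Ccl5 rose by 0.95 ± 0.12, Ccl9 by 0.91 ± 0.12, the scavenger chemokine Cxcl16 by 0.63 ± 0.09 and Ccl3 by 0.59 ± 0.08. Ccl6 (0.54 ± 0.11) and Ccl4 (0.51 ± 0.10) were called too. Ccl4 lost its call without any of the 6 high-fat arrays (highest adjusted p 0.096), and Ccl6 without chow RBC replicate 1, either high-fat RBC array, unexposed replicate 1 or either array of chow macrophages given chow RBC (highest adjusted p 0.36). The inflammatory cytokines Tnf and Il6 did not pass, at 0.29 ± 0.09 (adjusted p = 0.24) and 0.59 ± 0.14 (adjusted p = 0.06). Cxcl2, Il1b and Il1f9 are transcribed by neutrophils as well as macrophages. The neutrophil marker list, of which Il1f9 is itself a member, moved with them, as given above.

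NF-kB is the transcription factor that Toll-like and interleukin-1 receptors switch on. Of 17 genes for its subunits, inhibitors and targets all 17 had differences above 0, with a median of 0.27, but 1 was called. That was Bcl3, a nuclear cofactor of NF-kB, with log2 signals of 6.69 and 7.27 without RBC, 8.27 and 8.12 with chow RBC and 8.02 and 8.22 with high-fat RBC, a rise of 1.18 ± 0.13 (adjusted p = 2.24e-04). Its exposed arrays were close together and the unexposed arrays lay apart from each other below them. The number of called members was 2 without unexposed replicate 1 or high-fat RBC replicate 1 and 6 without unexposed replicate 2.

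Receptors that sense microbial products and the enzymes induced by them rose in part. Cd14, the lipopolysaccharide co-receptor, had log2 signals of 8.87 and 8.35 without RBC, 9.93 and 9.91 with chow RBC and 10.14 and 10.11 with high-fat RBC, a rise of 1.41 ± 0.12 (adjusted p = 1.58e-05). Tlr2, the lipoprotein receptor, rose by 1.22 ± 0.12 (adjusted p = 6.4e-05), from 6.88 and 6.45 to between 7.76 and 8.03. They were the called members among 19 pattern receptors and adaptors, of which 4 were called without unexposed replicate 2. Ptgs2, the cyclooxygenase that starts prostaglandin synthesis, had 6.75 and 6.69 without RBC, 8.45 and 8.27 with chow RBC and 8.59 and 8.33 with high-fat RBC, a rise of 1.69 ± 0.10 (adjusted p = 6.94e-07). It alone was called among 18 prostaglandin and leukotriene genes, whose median was 0.04. Without unexposed replicate 2 there were 2, and without replicate 1 there was 1 called lower. The inflammasome sensor Nlrp3 rose by 0.48 ± 0.09 and its adaptor Pycard fell by 0.43 on the log2 scale (SE 0.08), as the called members of 12 inflammasome genes (median 0.005). Both calls were lost without chow RBC replicate 2, high-fat RBC replicate 2 or unexposed replicate 1 (highest adjusted p 0.16 and 0.13), and that of Pycard without chow RBC replicate 1 as well.

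Acod1, which makes the antimicrobial metabolite itaconate, rose 4.77-fold. Its log2 signals were 5.98 and 6.39 without RBC, 8.53 and 8.21 with chow RBC and 8.39 and 8.64 with high-fat RBC (2.25 ± 0.16, adjusted p = 1.71e-06), with no overlap between unexposed and exposed arrays and an overlap between RBC diets. Hcar2, a receptor for ketone bodies and niacin, had 4.61 and 4.52 without RBC, 5.59 and 5.19 with chow RBC and 6.07 and 6.39 with high-fat RBC, a rise of 1.25 ± 0.13 (adjusted p = 1.8e-04). Arginase 2, Arg2, rose by 0.73 ± 0.14 (adjusted p = 0.018) and the fatty acid receptor Gpr84 by 0.57 ± 0.10 (adjusted p = 0.0097), calls that were lost without unexposed replicate 1 and, for Arg2, without replicate 2 of either RBC group (highest adjusted p 0.26 and 0.14). These 4 were the called members of the 11 genes of itaconate and arginine metabolism and metabolite receptors, with a median of 0.49, and 2 were called without unexposed replicate 1.

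**Figure D2:**
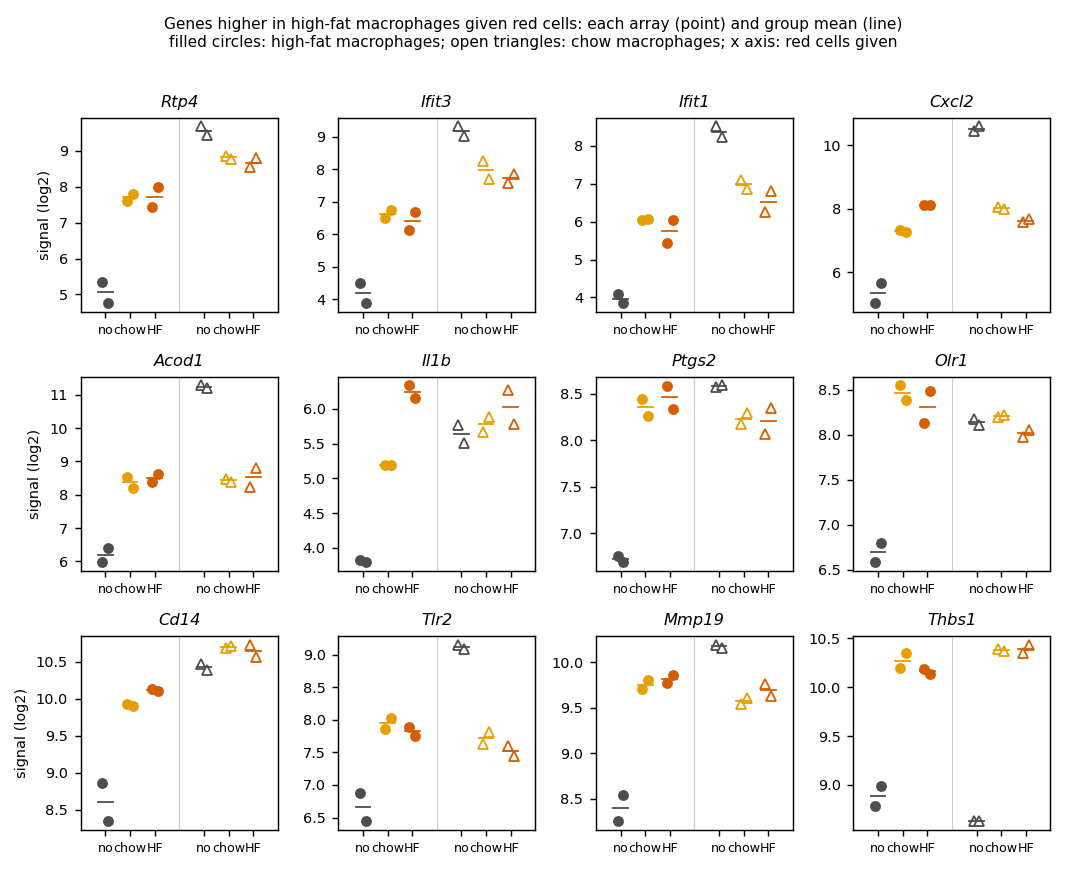
Log2 signal of 12 genes on every array (points) with the mean of each group (lines), by the red cells given (no, none; chow; HF, high-fat), with filled circles for high-fat and open triangles for chow macrophages. Each panel has its own vertical axis. In all 12 panels the 4 exposed high-fat arrays stand above both unexposed ones, while among chow macrophages the unexposed arrays are highest for Rtp4, Ifit3, Ifit1, Cxcl2, Acod1, Ptgs2, Tlr2 and Mmp19.

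Olr1, Mmp19 and Thbs1 were further rises of more than 1. Olr1, the receptor for oxidised low-density lipoprotein, had log2 signals of 6.59 and 6.80 without RBC, 8.55 and 8.38 with chow RBC and 8.13 and 8.49 with high-fat RBC, a rise of 1.70 ± 0.11 (adjusted p = 6.98e-07). Mmp19, a matrix metalloproteinase, had 8.25 and 8.54 without RBC, 9.70 and 9.81 with chow RBC and 9.78 and 9.86 with high-fat RBC, a rise of 1.39 ± 0.10 (adjusted p = 1.58e-06). Thbs1, the matricellular protein thrombospondin, had 8.78 and 8.99 without RBC, 10.20 and 10.35 with chow RBC and 10.19 and 10.14 with high-fat RBC, a rise of 1.33 ± 0.09 (adjusted p = 1.23e-06). In all 3 the exposed arrays stood clear of the unexposed ones, and the arrays of both RBC diets overlapped or lay side by side. Thbs1 is also an abundant platelet protein, and the platelet list moved with it, as given above.

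Of 17 contractile and matricellular genes 6 were called higher and none lower (median 0.29), and 16 had differences above 0. The growth regulators Ccn2 and Ccn1 rose by 0.98 ± 0.14 and 0.90 ± 0.11, and the myosin light chain Myl9 by 0.77 ± 0.11 (adjusted p = 0.0024, and 0.058 without unexposed replicate 1). Without that array 3 members were called in place of 6. Of 15 matrix proteases and inhibitors 4 were called higher (Mmp19, Mmp14 at 0.76 ± 0.12, Timp3 at 1.03 ± 0.17, which was 0.59 without unexposed replicate 1, and Timp1 at 0.72 ± 0.15) and 1 lower, the urokinase Plau. Timp1 lost its call without any of 10 arrays, all but high-fat RBC replicate 1 and unexposed replicate 2 (highest adjusted p 0.43), and Plau without either chow RBC array, high-fat RBC replicate 1 or unexposed replicate 2 (highest adjusted p 0.1).

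Immediate early genes, which are switched on rapidly by many signals, included 6 called rises of 22 (median 0.11). The nuclear receptor Nr4a1 rose by 0.78 ± 0.12, Egr1 by 0.66 ± 0.10 (adjusted p = 0.0026, and 0.058 without unexposed replicate 1) and Fos by 0.47 ± 0.08. Without that array 3 members were called. Vegfa, an angiogenic growth factor and HIF target, rose by 0.96 ± 0.13. It was 1 of 2 called among 19 glycolysis and HIF targets (median 0.08), and the other, Hif1a at 0.41 ± 0.08, lost its call without any of 9 arrays, all but unexposed replicate 2 and the chow macrophages given chow RBC (highest adjusted p 0.28). Of 16 alternative activation markers 4 were called higher, among them the chitinase-like Chil3 (1.27 ± 0.17) and the transglutaminase Tgm2 (1.24 ± 0.13), with a median of 0.11, and 2 were called without unexposed replicate 1. The Fc receptor Fcgr1 rose by 0.84 ± 0.09 and was the called member among 28 engulfment genes, whose median was 0.02. The antigen presentation genes H2-Aa (0.47 ± 0.10) and Cd86 (0.48 ± 0.09) were called among 13 genes of MHC class II and costimulation (median 0.11), but neither was without chow RBC replicate 1, high-fat RBC replicate 2 or unexposed replicate 1 (highest adjusted p 0.3 and 0.073), and H2-Aa also not without high-fat RBC replicate 1 or either array of chow macrophages given chow RBC.

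Few genes that handle the heme and iron of an engulfed red cell were called. Heme oxygenase, Hmox1, had log2 signals of 11.28 and 11.62 without RBC, 11.71 and 11.71 with chow RBC and 11.58 and 11.78 with high-fat RBC, a difference of 0.25 ± 0.10 (adjusted p = 0.39). The exposed and unexposed arrays of Hmox1 overlapped. The iron exporter ferroportin, Slc40a1, had 4.46 and 3.99 without RBC, 4.35 and 4.46 with chow RBC and 5.30 and 5.10 with high-fat RBC, a difference of 0.57 ± 0.13 (adjusted p = 0.061). Its high-fat RBC arrays were the highest, and the chow RBC arrays were no higher than about the upper unexposed one. With high-fat RBC alone Slc40a1 rose by 0.97 ± 0.15 (adjusted p = 0.0062, and 0.082 without high-fat RBC replicate 1), and with chow RBC alone the difference was 0.18 ± 0.15 (adjusted p = 0.78). The mean signal of the iron list, of which Lcn2 with a rise of 1.90 is a member, did not overlap. It was 7.14 to 7.17 without RBC and 7.27 to 7.42 with RBC, and how much of this gap rests on Lcn2 was not tested. Among 12 heme genes 1 was called higher (Hp, haptoglobin, which binds free hemoglobin, at 0.60 ± 0.10, adjusted p = 0.0055, and 0.11 without unexposed replicate 1), and among 14 iron genes 1 was, the siderophore-binding Lcn2 at 1.90 ± 0.11. Lcn2 is also a neutrophil granule protein. The heme list had 2 called members and the iron list 1 without unexposed replicate 2, and 0 and 2 without replicate 1.

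Sterol, antioxidant and lysosomal lists held few calls. The cholesterol exporter Abca1 had log2 signals of 8.13 and 8.33 without RBC, 9.01 and 9.11 with chow RBC and 9.02 and 9.05 with high-fat RBC, a rise of 0.82 ± 0.09 (adjusted p = 3e-04), and was the called member among 13 LXR targets (median 0.06). The exposed arrays of Abca1 were almost level and well clear of the unexposed ones. The cystine transporter Slc7a11 rose by 0.80 ± 0.09 and was 1 of 2 called among 18 NRF2 targets (median 0.06), of which 1 remained without unexposed replicate 1. Among 20 genes of sterol and fatty acid synthesis the isomerase Idi1 was called at 0.47 ± 0.09 (median 0.18), a call lost without either chow RBC array, high-fat RBC replicate 2 or unexposed replicate 1 (highest adjusted p 0.15). None of 19 lysosomal genes (median 0.05), 16 genes of lipid storage and oxidation (median -0.01), 29 cell cycle genes (median 0.10), 17 endoplasmic reticulum chaperones (median 0.19), 9 heat shock genes (median 0.04), 8 genes of MHC class I processing (median 0.13) or 11 complement genes (median 0.07) was called. Without unexposed replicate 2 there were 1 lysosomal, 1 cell cycle, 2 lipid, 3 chaperone and 3 complement genes called higher, and 1 cell cycle gene was called without high-fat RBC replicate 1. Of 18 ATF4 targets, genes of the amino acid stress response, 1 was called in each direction and 4 had differences above 0, with a median of -0.16. The one that fell, the folate enzyme Mthfd2 (-0.50 ± 0.09), lost its call without chow RBC replicate 1, high-fat RBC replicate 1 or unexposed replicate 1 (highest adjusted p 0.17).

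**Figure D3:**
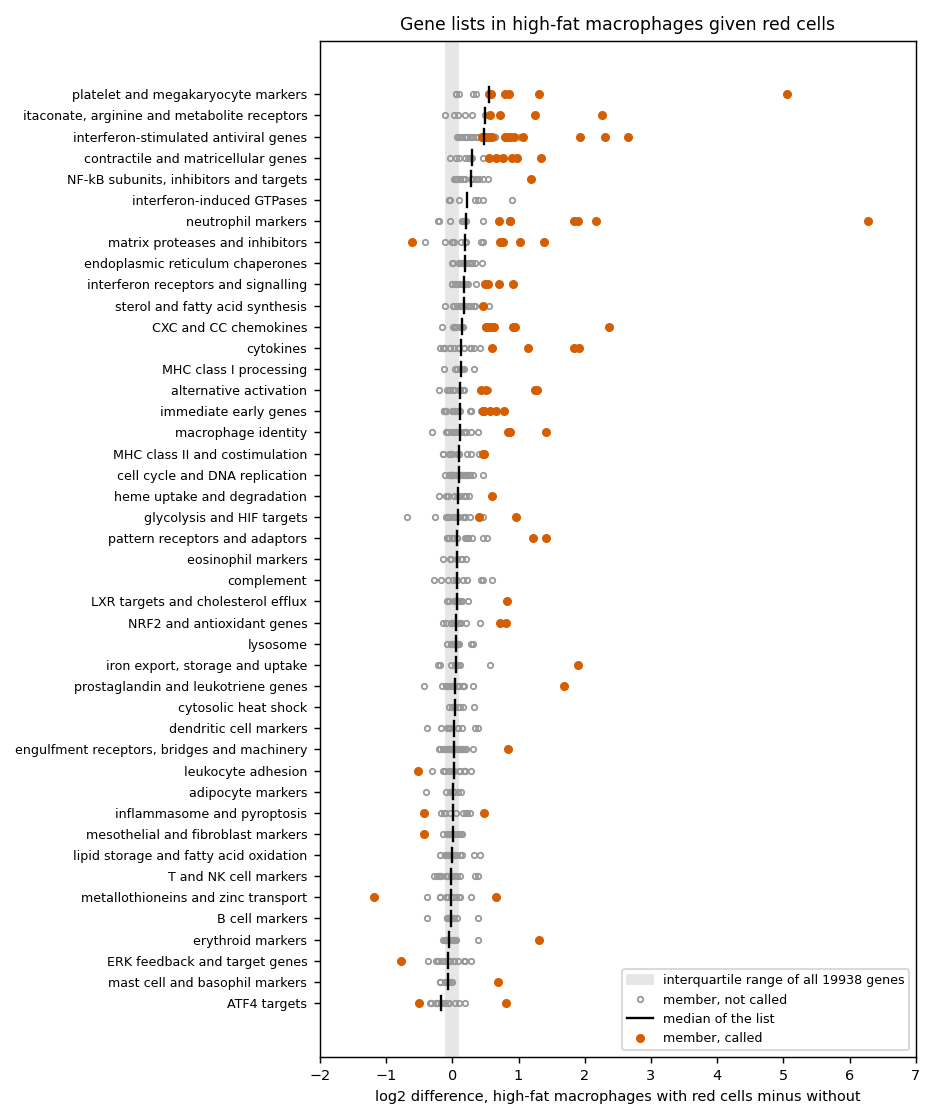
Log2 difference between high-fat macrophages with and without red cells (x axis) for the measured members of 34 gene lists and 10 cell marker lists (rows, ordered by median), with filled orange points for called and open grey points for uncalled genes. Black ticks mark list medians and the grey band the interquartile range of all 19938 genes. The platelet, itaconate and interferon-stimulated lists have the highest medians, and most lists have medians within or close to the band.

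The genes that fell were fewer and changed less. Mt2, a metallothionein that buffers zinc and copper, was the largest of them, with log2 signals of 9.12 and 9.09 without RBC, 7.51 and 7.65 with chow RBC and 8.41 and 8.10 with high-fat RBC. It fell 2.28-fold (-1.19 ± 0.11, adjusted p = 4.68e-05), and the chow RBC arrays were lowest without overlap. Its neighbour Mt1 had 10.82 and 10.74, 10.36 and 10.25, and 10.53 and 10.48 in the same order, a difference of -0.38 ± 0.10 that did not pass (adjusted p = 0.098), although all exposed arrays lay below both unexposed ones. Both genes are driven by the zinc-sensing factor MTF1 through metal response elements, and their RefSeq promoters (GRCm38.p6) are shown with matches to TGCACNC or TGCGCNC on either strand in capitals.
Mt2 promoter, chr8:94172368-94172667, plus strand: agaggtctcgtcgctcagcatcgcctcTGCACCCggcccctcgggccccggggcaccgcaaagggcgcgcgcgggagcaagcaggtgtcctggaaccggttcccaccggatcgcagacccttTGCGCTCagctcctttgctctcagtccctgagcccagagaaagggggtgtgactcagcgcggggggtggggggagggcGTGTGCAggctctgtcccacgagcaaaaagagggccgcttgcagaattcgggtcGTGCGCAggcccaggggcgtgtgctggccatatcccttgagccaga
Mt1 promoter, chr8:94178839-94179138, plus strand: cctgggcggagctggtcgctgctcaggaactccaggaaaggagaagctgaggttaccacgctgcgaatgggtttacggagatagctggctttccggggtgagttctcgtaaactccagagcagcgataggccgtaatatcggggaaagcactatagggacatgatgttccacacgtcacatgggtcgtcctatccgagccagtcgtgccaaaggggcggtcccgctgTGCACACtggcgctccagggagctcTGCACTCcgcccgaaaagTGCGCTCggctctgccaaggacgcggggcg
Mt2 had 4 matches and Mt1 had 3. By comparison, 25.7% of all promoters of this length held at least 1 match, as did 34.1% of the 15614 tested genes with a promoter entry. At least 1 match was found in 9 of 31 called falls (29%) and 28 of 133 called rises (21.1%). The zinc importer Slc39a10 went the other way, rising by 0.67 ± 0.08 (adjusted p = 5.8e-04), and it and Mt2 were the called members of 12 metallothionein and zinc transport genes.

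Other falls were smaller than that of Mt2. Efr3b, which anchors a lipid kinase at the plasma membrane, had log2 signals of 7.57 and 7.43 without RBC, 6.67 and 6.55 with chow RBC and 6.65 and 6.40 with high-fat RBC (-0.93 ± 0.10, adjusted p = 1.8e-04). Rasgrp3, an activator of Ras and Rap, had 5.27 and 5.47 without RBC, 4.50 and 4.34 with chow RBC and 4.62 and 4.36 with high-fat RBC (-0.92 ± 0.10, adjusted p = 1.8e-04). Etv5, an ETS factor and target of ERK signalling, had 7.81 and 8.13 without RBC, 7.21 and 6.89 with chow RBC and 7.31 and 7.39 with high-fat RBC (-0.77 ± 0.11, adjusted p = 0.0025). In these 3 genes the unexposed arrays were the highest and the RBC diets overlapped or lay close together. The ADP receptor P2ry1 fell by 0.63 on the log2 scale (SE 0.08, adjusted p = 7.7e-04), and the survival factor Bcl2 by 0.53 (SE 0.10, adjusted p = 0.024). Plau fell by 0.61 (SE 0.12, adjusted p = 0.022) and the adhesion molecule Vcam1 by 0.52 (SE 0.10, adjusted p = 0.021). Bcl2 and Plau lost their call without either chow RBC array, high-fat RBC replicate 1 or unexposed replicate 2 (highest adjusted p 0.1 for both), and Vcam1 without any high-fat array but unexposed replicate 2 (highest adjusted p 0.23). Vcam1 was the called member of 13 leukocyte adhesion genes (median 0.02). Etv5 was the called member of 15 ERK feedback and target genes, with a median of -0.07.

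Of 291 microRNA genes tested, 1 was called, Mir342, and it was lower. The array reads the precursor, and its mature products are given here from RefSeq (GRCm38.p6, chr12:108658620-108658718, plus strand) with the seed, bases 2 to 8, in capitals.
mmu-miR-342-5p: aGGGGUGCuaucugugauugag
mmu-miR-342-3p: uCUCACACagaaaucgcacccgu
Mir342 had log2 signals of 6.52 and 6.50 without RBC, 5.82 and 6.12 with chow RBC and 5.62 and 5.50 with high-fat RBC (-0.74 ± 0.12, adjusted p = 0.006, and 0.081 without unexposed replicate 1). The gene lies within Evl, an actin regulator, which fell by 0.38 on the log2 scale (SE 0.08, adjusted p = 0.033), from 9.59 and 9.60 to between 9.15 and 9.31. Evl lost its call without any of 10 arrays, all but the chow macrophages given chow RBC (highest adjusted p 0.17). Whether mature miR-342 changed was not measured.

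**Figure D4:**
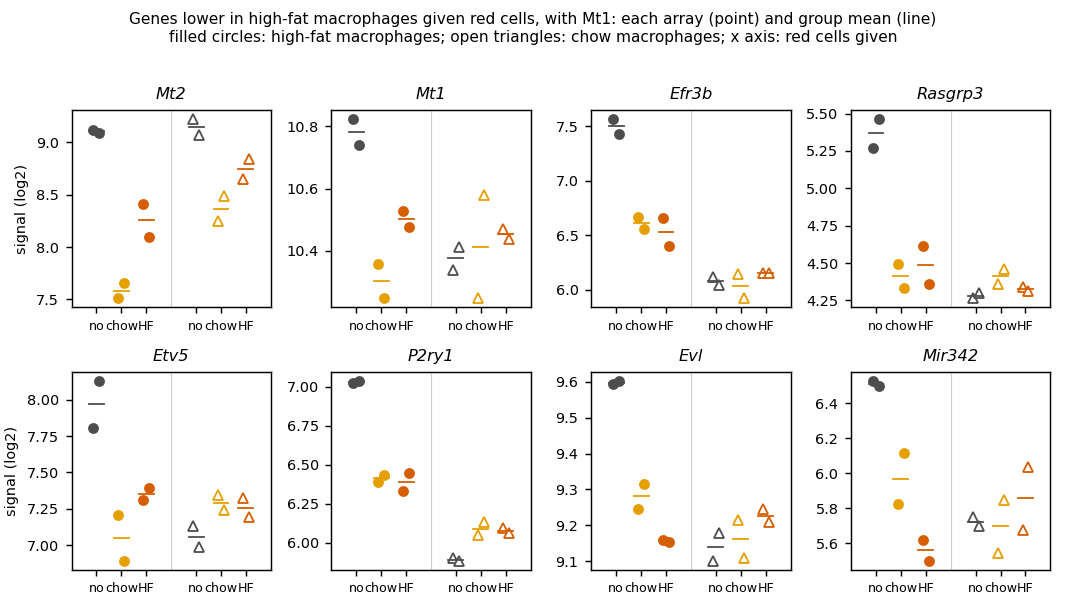
Log2 signal of 8 genes that are lower in exposed high-fat macrophages, Mt1 not called among them, on every array (points) with group means (lines), by the red cells given (no, none; chow; HF, high-fat), with filled circles for high-fat and open triangles for chow macrophages. Each panel has its own vertical axis. The unexposed high-fat arrays are the highest of their panel for Mt1, Efr3b, Rasgrp3, Etv5, P2ry1, Evl and Mir342, and for Mt2 they lie level with the unexposed chow arrays.

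Taken separately, each kind of RBC gave a like number of calls. RBC of chow-fed donors against none gave 111 genes higher (0.557% of all genes) and 18 lower (0.0903%), 0.647% in all, and RBC of high-fat-fed donors gave 129 higher (0.647%) and 21 lower (0.105%), 0.752% in all. Both comparisons use the same 2 unexposed arrays. Rtp4 differed from unexposed by 2.65 ± 0.19 with chow and 2.66 ± 0.19 with high-fat RBC, and Acod1 by 2.18 ± 0.18 and 2.32 ± 0.18. Larger values with high-fat RBC were seen for Cxcl2, at 2.77 ± 0.15 against 1.95 ± 0.15, and larger falls with chow RBC for Mt2, at -1.52 ± 0.13 against -0.85 ± 0.13. For chow RBC the count of 129 was 54 and 65 without chow RBC replicates 1 and 2, 80 without unexposed replicate 1 and 458 without unexposed replicate 2. For high-fat RBC the count of 150 was 80 and 66 without high-fat RBC replicates 1 and 2, 93 without unexposed replicate 1 and 290 without unexposed replicate 2.

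The direct test of high-fat against chow RBC, 2 arrays against 2, called 5 genes, all higher with high-fat RBC (0.0251% of all genes). At an unadjusted p below 0.05 there were 789, below the 996.9 that 5% of the genes tested amount to. Il1f9 was higher by 1.13 ± 0.12 (adjusted p = 0.0046), Ifitm1, an interferon-induced membrane protein, by 1.07 ± 0.13 (adjusted p = 0.012) and Il1b by 1.05 ± 0.15 (adjusted p = 0.026). Ifitm1 had signals of 5.83 and 6.00 without RBC, 6.41 and 6.06 with chow RBC and 7.27 and 7.34 with high-fat RBC. Mirt2, a long noncoding RNA, was higher by 1.00 ± 0.14 (adjusted p = 0.026), with 5.57 and 5.66, 6.37 and 6.13, and 7.0 and 7.50, and Lcn2 by 0.96 ± 0.13 (adjusted p = 0.021). In all 5 genes both high-fat RBC arrays stood above both chow RBC arrays. The neutrophil list, of which Il1f9 and Lcn2 are members, was higher with high-fat than with chow RBC on all arrays, as given above. The list is thus not separate from the differences in those 2 genes, and its part in any of the 5 differences was not tested. Without high-fat RBC replicate 2 none was called, and without chow RBC replicate 2 none of the 5 was, while 2 other genes were called lower. Without chow RBC replicate 1 or either array of chow macrophages given chow RBC, Il1f9 and Ifitm1 stayed called, and without high-fat RBC replicate 1, Il1f9 and Mirt2 did. Mirt2 also lost its call without any other array of chow macrophages (highest adjusted p 0.31 over all omissions). The differences in Cxcl2 (0.82 ± 0.15) and Mt2 (0.67 ± 0.15) did not pass (adjusted p = 0.13 and 0.14), although Cxcl2 did without either unexposed array (adjusted p = 0.0081).

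Macrophages of chow-fed mice given the same RBC responded otherwise for many of these genes. The difference between the responses, tested as an interaction over all genes, called 1131 genes (5.67%), with 513 more positive (2.57%) and 618 more negative (3.1%) in high-fat macrophages, and 558 without unexposed chow replicate 2. The chow response is measured on 6 other arrays, but both responses are tested with the same estimate of each gene's spread, so their calls are not independent. Of the 175 genes raised in high-fat macrophages, 57 were called higher with RBC in chow macrophages, 61 were called lower and 57 were not called. Over all genes, 8.22% and 4.51% were called higher and lower in chow macrophages. Of the 40 lowered genes, 5 were called higher, 5 lower and 30 not called in chow macrophages. Without RBC, 117 of the 175 raised genes were called lower and 17 higher in high-fat than in chow macrophages. In that comparison 27 of the 40 lowered genes were called higher and 3 lower, and over all genes 5081 had an unadjusted p below 0.05. It uses the same unexposed high-fat arrays as the exposure difference, so their calls are not independent.

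The interferon-stimulated list ran the opposite way in chow macrophages. In chow macrophages 24 of its 31 genes fell with RBC and none rose, with a median of -0.66, against 15 risen and none fallen in high-fat macrophages, and the interaction was called more positive for 27. The mean signal of the list was 7.80 and 7.96 on the unexposed chow arrays, where it was 5.84 and 6.02 on the unexposed high-fat arrays, and with RBC it was 6.97 to 7.22 in chow and 6.43 to 6.67 in high-fat macrophages. For Rtp4 the difference between the responses was 3.48 ± 0.23 (adjusted p = 1.02e-06), for Ifit3 3.64 ± 0.27 (adjusted p = 2.58e-06) and for Ifit1 3.55 ± 0.24 (adjusted p = 1.05e-06). The NF-kB list had 17 of 17 genes lower with RBC in chow macrophages (median -0.79), and 16 interactions more positive.

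Cxcl2 and Acod1 had the largest interactions, 5.07 ± 0.18 and 5.02 ± 0.22. Cxcl2 fell in chow macrophages (-2.70 ± 0.13), from 10.46 and 10.60 to between 7.59 and 8.06, and rose in high-fat macrophages from 5.04 and 5.65 to between 7.26 and 8.13. Without RBC the high-fat minus chow difference in Cxcl2 was -5.19, and with RBC it was -0.12 ± 0.11 (adjusted p = 0.68). For Acod1 the corresponding values were -5.06 and -0.04 ± 0.13 (adjusted p = 0.93). The arrays of both diets were far apart without RBC and close together with RBC. Ptges, the terminal prostaglandin E synthase, and the chemokine Cxcl3 had interactions of 3.58 ± 0.17 and 3.39 ± 0.26. They fell in chow macrophages (-3.60 and -3.37), and their differences in high-fat macrophages were -0.03 ± 0.12 and 0.02 ± 0.19.

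Some responses ran the same way in both diets. S100a9 rose by 5.24 ± 0.12 in chow macrophages, with an interaction of 1.04 ± 0.17 (adjusted p = 0.0023), and Ppbp by 3.82 ± 0.26, with an interaction that did not pass (1.24 ± 0.37, adjusted p = 0.068) but did without high-fat RBC replicate 1, unexposed chow replicate 2 or replicate 2 of the chow macrophages given high-fat RBC (lowest adjusted p 0.018). The contractile and matricellular genes rose in chow macrophages too, 12 of 17 with a median of 1.58, and 9 of their interactions were more negative in high-fat macrophages and none more positive. Myl9 rose by 2.79 ± 0.11 in chow and 0.77 ± 0.11 in high-fat macrophages, from unexposed signals that were lower in chow macrophages (5.10 on average) than in high-fat macrophages (7.23 and 7.41). Of the falls in high-fat macrophages, Efr3b (0.01 ± 0.10), Rasgrp3 (0.09 ± 0.10) and P2ry1 (0.19 ± 0.08) had differences near 0 in chow macrophages that were not called, with interactions of -0.94 ± 0.14, -1.0 ± 0.14 and -0.82 ± 0.11 (adjusted p at most 9.7e-04). Mt2 fell in both, by 0.59 (SE 0.11) on the log2 scale in chow macrophages, with an interaction of -0.60 ± 0.16 (adjusted p = 0.039). That call was lost without any of 9 arrays, all but replicate 1 of the high-fat macrophages given high-fat RBC and of both exposed chow groups (highest adjusted p 0.21).

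**Figure D5:**
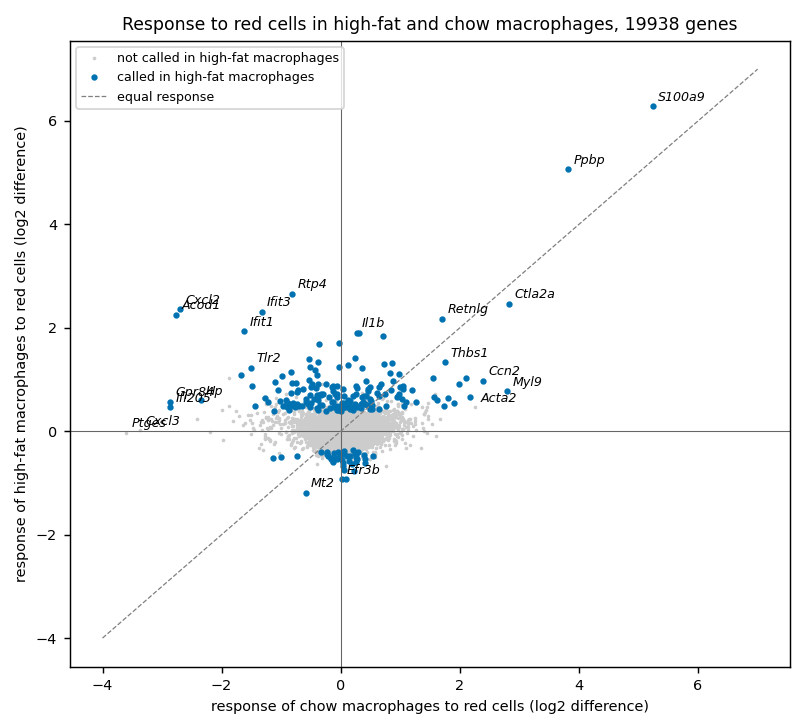
Log2 response to red cells of high-fat macrophages (y axis) against that of chow macrophages (x axis), each measured on its own 6 arrays, for 19938 genes, with blue points for the 215 genes called in high-fat macrophages and a dashed line at equal responses. S100a9 and Ppbp lie far up on the right, Cxcl2, Acod1, Ifit1, Ifit3 and Tlr2 lie above 0 on the left, where chow macrophages fell, and Myl9 and Ccn2 lie below the dashed line on the right.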

How the data were processed

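RNA of 12 macrophage cultures was hybridised to Affymetrix Mouse Gene 1.0 ST arrays, 2 per group. The values are log2 signals per probe set as deposited by the authors. Their summarisation and normalisation are not given in the labels or file header, and the scale was inferred from the span of the signals. With 2 arrays a group, precision is limited.

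Of 35556 probe sets with values, 23410 were listed in the platform annotation, 21789 with a single symbol. Where a gene had more than 1 (999 genes), the brightest was kept, giving 19938 genes, and no filter on low values was applied. The 1621 probe sets with several symbols were tested apart. All 12 arrays were fitted in limma 3.58.1 (R 4.3.3) with 1 mean per group and empirical Bayes moderation, with 6 residual and 7.69 prior degrees of freedom. The exposure comparison is the mean of both RBC groups minus the group without RBC, and the interaction is that difference in high-fat minus chow macrophages. On simulated data with 100 changed genes of each size, the exposure comparison recovered 98% of log2 changes of 1 and 56% of changes of 0.5. For high-fat against chow RBC the shares were 93% and 35%, and for the interaction 78% and 20%. Each gene was simulated with the same spread on all arrays, whereas the unexposed high-fat arrays were less alike than the exposed ones.

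The genes compared, the 34 function lists and 10 marker lists and the motifs were chosen with earlier results of these data known, so counts over lists are descriptions. Named genes were up to 20 called in each direction for exposure, up to 8 in each direction for each other comparison, and members of the lists. Evl was named outside this rule after its values were seen, as the host gene of Mir342. Alternatives tried were a threshold of 0.10, a minimum change of 1.5-fold, quantile normalization, removal of the lowest 33.3% of genes, an intensity trend with robust prior, array weights, the mean of probe sets, the compared groups alone, 1 pooled exposed group, replicate blocks, and each array left out. Promoter and microRNA sequences are from RefSeq (GRCm38.p6), and the motif letters searched in them are textbook consensus cores, of which a longer interferon form was also searched and is not reported here.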

Additional observations from a re-analysis of the deposited data

Results flagged for a closer look

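The response to RBC differed between macrophages of high-fat-fed and chow-fed mice by the interaction test over all genes, and the 8 genes with the largest differences in each direction are given here as high-fat minus chow response. More positive in high-fat macrophages were Cxcl2 (5.07 ± 0.18), Acod1 (5.02 ± 0.22), Ifit3 (3.64 ± 0.27), Ptges (3.58 ± 0.17), Ifit1 (3.55 ± 0.24), Rtp4 (3.48 ± 0.23), Gpr84 (3.43 ± 0.14) and Cxcl3 (3.39 ± 0.26), with adjusted p of at most 3.93e-06. All 8 fell in chow macrophages. More negative were Myl9 (-2.02 ± 0.16), Acta2 (-1.79 ± 0.15), Gm5150 (-1.70 ± 0.22), Cmbl (-1.67 ± 0.16), Ankrd1 (-1.52 ± 0.18), Bub1 (-1.49 ± 0.16), Ankrd37 (-1.44 ± 0.24) and Kctd12b (-1.43 ± 0.21), with adjusted p of at most 0.0021. All 8 of these rose in chow macrophages. No test for an outlying sample within a group was made, because each group holds 2 arrays.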

How the results depend on the processing

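Each alternative changed 1 choice, except that the intensity trend and the robust prior were switched on together, and each of the 12 arrays was left out in turn. Array weights came out equal within each group, so they weigh groups and not single arrays. They were lowest for the unexposed high-fat arrays (0.544) and highest for chow macrophages given high-fat RBC (1.56). For exposure as a whole (215 genes) the counts were 336 at an adjusted p below 0.10, 315 with an intensity trend and robust prior, 120 with a 1.5-fold minimum, 101 with array weights and 92 when the high-fat arrays alone were fitted, and they ran from 120 to 652 without 1 array. For chow RBC (129) they were 201 at an adjusted p below 0.10, 201 with the trend and robust prior, 84 with array weights and 44 from the compared groups alone, and 54 to 458 without 1 array. For high-fat RBC (150) they were 78 with array weights and 38 from the compared groups alone, and 66 to 290 without 1 array. For high-fat against chow RBC (5) they were 13 with the trend and robust prior, 9 with array weights and 0 from the compared groups alone. The interaction count (1131) ran from 558 to 1115 without 1 array. The cause of a moved count was not tested. Quantile normalization, removal of the lowest 33.3% of genes, the mean of probe sets and 1 pooled exposed group kept the exposure count between 216 and 262. The 40 genes called lower moved more than the 175 called higher: they were 65 with quantile normalization, 69 with the trend and robust prior and 9 with array weights or the compared groups alone, where 177, 246, 92 and 83 were called higher in the same order.

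With the replicate number as a block over all groups the counts were 213, 113, 124, 6 and 1059 in the same order, and with a block within each macrophage diet 237, 141, 144, 3 and 1180. Same-numbered high-fat arrays did not deviate together for every pair of groups (correlations -0.06, 0.34 and -0.08), so the numbers were not taken as pairs.

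For the 86 named genes called for exposure, 99 of 946 values under other settings and 142 of 1032 without 1 array missed the threshold. None changed sign, which the order of the arrays fixes in advance where 1 array is left out. Leaving out either array of a chow macrophage group gave the same fit for exposure and could not alter the difference. Of the other settings, only quantile normalization and the mean of probe sets could alter a difference. A threshold of 0.10 could not lose a call. Sign changes were seen only in uncalled genes without 1 array, whose differences ran from -0.40 to 0.45 for Cxcl3, from -0.077 to 0.15 for Ifnb1 and from -0.22 to 0.17 for Ptges. Signal over background is unknown.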

Other observations

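Among the 1621 probe sets listed for several genes, 10 were called higher and 1 lower with RBC in high-fat macrophages, the 4 globin probe sets among the higher ones.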
